A study of Rattus norvegicus with 2 samples.

Results

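The sodium pump subunits and FXYD regulators are 8 genes of 18166 with a value on these arrays. They comprise the beta subunit genes *Atp1b1* and *Atp1b3* and the FXYD genes *Fxyd1*, *Fxyd2*, *Fxyd3*, *Fxyd5*, *Fxyd6* and *Fxyd7*. A member is a gene that the platform annotation names alone on a probe set, and each of the 8 had exactly 1 probe set. They were chosen by family and annotation after their signals in both samples had been seen, so the differences below are a description and no test was made of them. Of the other genes of the family, *Atp1b2*, *Atp1b4*, *Atp1a4* and *Fxyd4* are also named alone on a probe set and are given beside the 8.

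The RNA came from LECs (lens epithelial cells), taken with the lens capsule from Shumiya cataract rats (SCRs) of 5 weeks. The Cat- sample was from rats with the genotype Lss s/s, which stay free of cataract, and the Cat+ sample from rats with Lss s/l, in which the lens turns opaque. At 5 weeks the study saw clear lenses in Cat- rats and a mild opacity, posterior and cortical, in Cat+ rats, with mature cataract only later. *Lss* encodes lanosterol synthase of the cholesterol pathway, and the genotype was read from tail DNA. Cataract in this strain is also tied to alleles of *Fdft1*, which encodes squalene synthase, and the *Fdft1* genotype of the samples is not given in the sources used here. Each group was 1 GeneChip Rat Gene 2.0 ST array with RNA from 2 eyes, with no statement of whether these were of the same rat, so no value has an error between animals.

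The sodium pump moves sodium out of the cell and potassium in, using ATP. It is built from a catalytic alpha subunit and a glycosylated beta subunit that carries it to the membrane, and a small FXYD protein with a single membrane span can bind to it and tune its affinity for ions. In the lens most pump activity lies in the epithelium, while fiber cells depend on it for the ion circulation that holds their volume and the transparency of the tissue.

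The deposited value of a probe set is a log2 signal, given below for Cat- against Cat+, and the fold change is Cat+ over Cat-. Signals of different probe sets are not compared as levels of their genes, because probes differ in how well they bind, and serve between genes only to find others of like brightness. The study's size rule, a fold change under 0.5 or over 2, serves here as a mark of size only. As a second scale, the log2 differences of probe sets that share a gene spread with an SD of 0.17 (291 genes), or a factor of 1.13, which covers probe sets and not animals. The log2 signal had a median of 5.67 over all probe sets in Cat- and of 5.69 in Cat+. The median log2 difference over all genes was -0.005, so the differences of single genes are read against a centre close to 0.

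*Fxyd6* was the only member past the size rule. It encodes phosphohippolin, a regulator of the pump best known from brain and inner ear. For *Fxyd6* the log2 signal was 7.94 in Cat- against 6.59 in Cat+, a difference of -1.35 and a fold change of 0.392, or 2.55-fold lower in Cat+. In rank this was place 34 from the lowest of the 18166 genes. Among 3270 genes whose mean signal lay within 0.5 of that of *Fxyd6*, the middle 90% of log2 differences ran from -0.39 to 0.29. *Fxyd6* therefore lay far below the bulk of genes of like brightness, and it kept a signal above the array median in both samples. In bulk RNA of this kind, fewer cells of a type that makes the transcript and less transcript per cell cannot be told apart.

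Of the 8 members, 1 had a fold change under 0.5, where 0.308% of all genes did, and 0 had one over 2, where 0.00550% of all genes did. In sign the set was split evenly, with 4 genes lower in Cat+ and 4 higher, against 51.2% lower and 48.8% higher over all genes. The median log2 difference of the set was 0.04. Beyond the SD between probe sets, 3 members were lower (*Fxyd6*, *Fxyd1* and *Fxyd3*) and 3 were higher (*Atp1b1*, *Atp1b3* and *Fxyd5*), while 17.0% and 14.6% of all genes lay that far out in the same directions. By role, both beta subunits of the set were higher, and 4 of the 6 FXYD genes were lower, beside 51.2% lower over all genes. Of these FXYD genes, *Fxyd7* was lower by less than that SD.

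**Figure D1:**
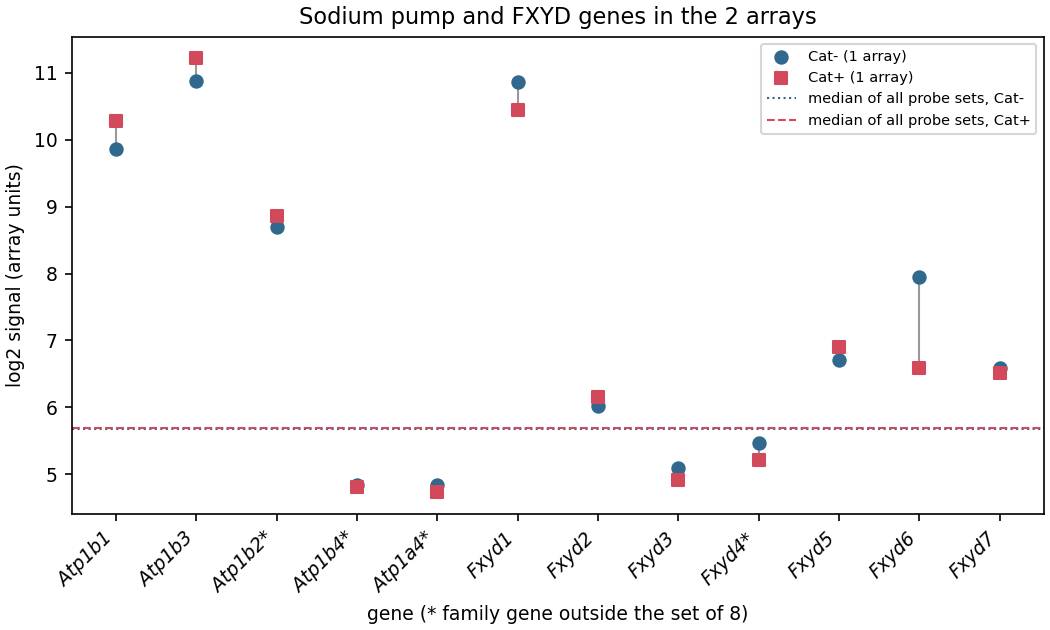
Log2 signal (y axis, array units) of each sodium pump and FXYD gene (x axis) in Cat- (circles) and Cat+ (squares), 1 array each, with grey lines joining the pair and horizontal lines at the median of all probe sets. The pair of *Fxyd6* is the widest, from 7.94 to 6.59; signals of different genes are not comparable in level.

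*Atp1b1* encodes the beta 1 subunit, which occurs with the pump of most tissues and also bridges neighbouring epithelial cells. It read 9.87 in Cat- against 10.28 in Cat+ in log2 signal, a difference of 0.41 and a fold change of 1.33. It held place 244 from the highest of the 18166 genes, and the middle 90% of 293 genes of like signal ended at 0.34. *Atp1b3* encodes the beta 3 subunit. It read 10.87 in Cat- against 11.22 in Cat+ in log2 signal, a difference of 0.34 and a fold change of 1.27. Its difference stood at the upper edge of the middle 90% of 94 genes of like signal, which also ended at 0.34. The 2 beta subunits differed from each other in their log2 difference by 0.07, less than the SD between probe sets. Both had signals above those of 98.3% of the probe sets of the Cat- array, so neither value rests on dim probes, and whether such bright probe sets were near saturation was not measured.

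*Fxyd1* encodes phospholemman, the FXYD protein of heart and skeletal muscle, whose tail is phosphorylated by protein kinases A and C. For *Fxyd1* the log2 signal was 10.87 in Cat- against 10.45 in Cat+, a difference of -0.42 and a fold change of 0.749. It held place 468 from the lowest, and the middle 90% of 151 genes of like signal began at -0.50, so *Fxyd1* stayed inside that range. The 3 measured markers of muscle, *Myh11*, *Des* and *Myh6*, had log2 signals near the array median or under it, from 4.93 to 6.08 in Cat- and from 4.73 to 6.11 in Cat+. The drop of *Fxyd6* exceeded that of *Fxyd1* by a factor of 1.91.

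*Fxyd5* encodes dysadherin, which binds the pump and lowers adhesion between cells. It read 6.71 in Cat- against 6.91 in Cat+ in log2 signal, a fold change of 1.15. *Fxyd2* encodes the gamma subunit, the FXYD protein of the kidney tubule, and read 6.01 against 6.16 in log2 signal, a fold change of 1.11. *Fxyd7*, a regulator found mainly in brain, read 6.59 against 6.51 in log2 signal, a fold change of 0.949. The differences of *Fxyd2* and *Fxyd7* were smaller than the SD between probe sets, and that of *Fxyd5* passed it narrowly, at 0.20. *Fxyd3*, known as Mat-8 from mammary tumours, read 5.10 against 4.92 in log2 signal, a fold change of 0.883. It lay below the array median in both samples, the single member to do so, above 31.2% of probe sets in Cat- and 24.9% in Cat+. Since the table has no detection calls, whether *Fxyd3* was expressed at all could not be read from it. All 4 of these genes lay inside the middle 90% of genes of like signal.

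**Figure D2:**
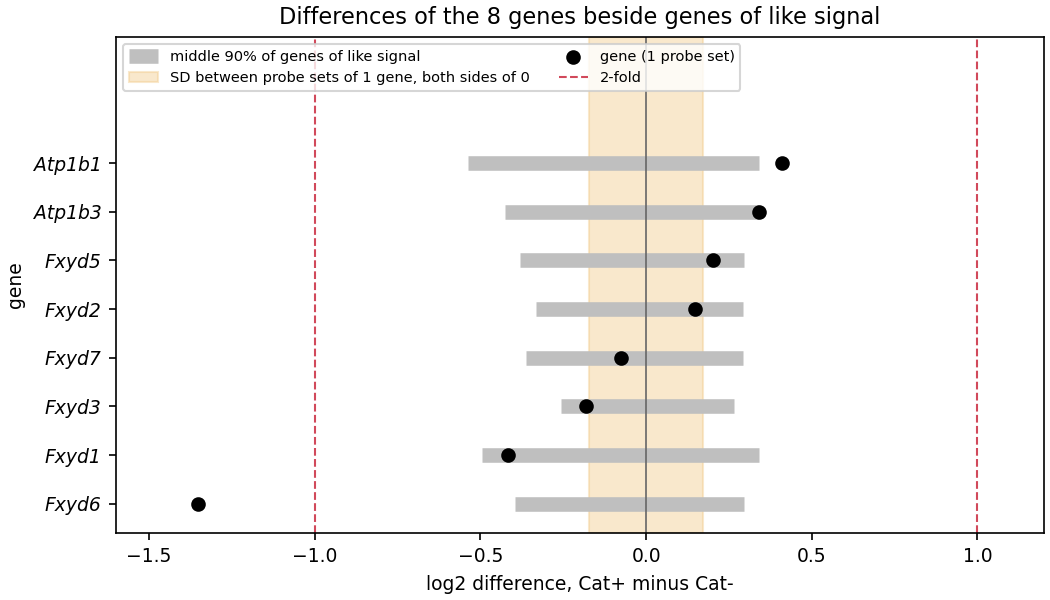
Log2 difference, Cat+ minus Cat- (x axis), of the 8 genes (black points, y axis), with the middle 90% of genes of like signal (grey bars), the SD between probe sets of the same gene on both sides of 0 (shaded, 0.17) and 2-fold lines (dashed). *Fxyd6*, at -1.35, stands outside its grey bar and past the 2-fold line, and *Atp1b1*, at 0.41, stands outside its bar on the other side.

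Of the 4 family genes given beside the set, only *Fxyd4*, at a log2 difference of -0.24, passed the SD between probe sets. *Atp1b2*, which encodes the beta 2 subunit known as an adhesion molecule on glia, read 8.70 in Cat- against 8.85 in Cat+ in log2 signal, a fold change of 1.11. It thus had the sign of *Atp1b1* and *Atp1b3*, at a size under the SD between probe sets. *Atp1b4* had the other sign, at -0.03, also under that SD. *Fxyd4*, the FXYD protein of kidney collecting duct and colon, read 5.46 against 5.22 in log2 signal, a fold change of 0.844. *Atp1b4*, whose mammalian product sits in the nuclear membrane of muscle, read 4.83 against 4.80, a fold change of 0.979. *Atp1a4*, the catalytic subunit of sperm, read 4.84 against 4.73, a fold change of 0.928. *Fxyd4*, *Atp1b4* and *Atp1a4* were below the array median in both samples. Of these 4 genes, 3 were lower and 1 was higher, and none passed the size rule. Over all genes, 51.2% were lower and 0.308% had a fold change under 0.5.

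**Figure D3:**
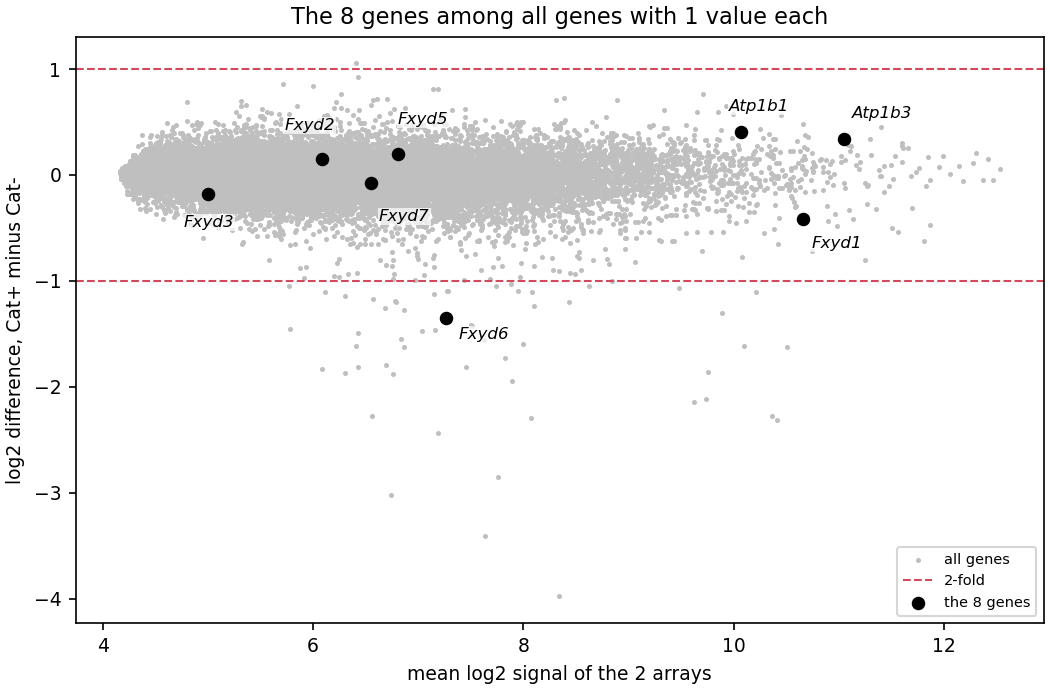
Log2 difference, Cat+ minus Cat- (y axis), against the mean log2 signal of the 2 arrays (x axis) for all 18166 genes (grey) and the 8 genes (black, named), with 2-fold lines (dashed). *Fxyd6* lies in the sparse field below the lower line, *Atp1b1* and *Atp1b3* lie on the upper side among bright genes, and the other members lie within the cloud.

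The order of the genes along the chromosome was taken from RefSeq for GRCr8, with names and order only. *Fxyd6* and *Fxyd2* are direct neighbours there, yet their differences were unlike, at -1.35 and 0.15 on the log2 scale, a gap of a factor of 2.83. On the other side of *Fxyd6*, *Tmprss13*, a membrane serine protease, read 5.65 against 5.61 in log2 signal, a fold change of 0.973. *Fxyd5*, *Fxyd7*, *Fxyd1*, *Lgi4* and *Fxyd3* follow each other in that order. Along this row the log2 differences were 0.20, -0.08, -0.42, -0.20 and -0.18, with *Lgi4*, a secreted protein of peripheral glia, dim in both samples at 5.54 and 5.34. *Lgi4* and *Tmprss13* were picked for their position. Neighbours in the same row thus lay on both sides of 0.

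The sequence before the start site is shown for *Fxyd6* and *Fxyd1*, the members with the lowest differences, and for *Atp1b3*, the beta subunit with an entry, to set the FXYD genes beside a subunit gene. The RefSeq promoters used here (GRCr8) matched 4 of the 8 members by symbol, the other being *Fxyd5*, with 2 start sites. The windows are the 250 bases before the start, 5′ to 3′ on the strand of the gene, at chr8:54575575-54575824 on the plus strand for *Fxyd6*, chr1:95418581-95418830 on the minus strand for *Fxyd1* and chr8:105821152-105821401 on the minus strand for *Atp1b3*. Capitals mark the GC box GGGCGG and the CCAAT box, each on either strand.

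Fxyd6: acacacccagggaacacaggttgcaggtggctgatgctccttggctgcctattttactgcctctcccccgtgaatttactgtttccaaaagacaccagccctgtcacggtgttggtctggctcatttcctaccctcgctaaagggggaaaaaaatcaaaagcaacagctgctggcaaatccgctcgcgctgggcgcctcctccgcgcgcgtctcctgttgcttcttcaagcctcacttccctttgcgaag

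Fxyd1: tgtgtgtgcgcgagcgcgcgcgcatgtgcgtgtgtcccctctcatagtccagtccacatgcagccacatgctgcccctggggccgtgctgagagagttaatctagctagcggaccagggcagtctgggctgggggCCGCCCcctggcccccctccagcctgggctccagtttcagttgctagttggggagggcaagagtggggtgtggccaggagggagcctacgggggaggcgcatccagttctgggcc

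Atp1b3: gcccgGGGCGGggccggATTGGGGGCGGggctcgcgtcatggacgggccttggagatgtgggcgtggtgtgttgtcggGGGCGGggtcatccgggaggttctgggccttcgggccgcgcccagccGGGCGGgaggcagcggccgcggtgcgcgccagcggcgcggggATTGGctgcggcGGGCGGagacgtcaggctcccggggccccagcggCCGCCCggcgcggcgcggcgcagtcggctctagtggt

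The window of *Atp1b3* held 6 matches to the GC box and 2 to the CCAAT box, the one at -233 ending where the GC box at -228 begins. That of *Fxyd1* held 1 GC box, at -115, and that of *Fxyd6* held neither motif. Of the 2 windows of *Fxyd5*, which are not printed, 1 held 2 GC boxes and the other 0. Neither *Fxyd5* window held a CCAAT box. Positions count back from the start site and give the first base of the match in the printed strand. Of 33360 windows of the same length, 30.5% held a GC box and 34.0% a CCAAT box. The *Atp1b3* window was 79.6% G and C with 38 CpG dinucleotides, above 98.8% of windows in its G and C content. The *Fxyd6* and *Fxyd1* windows each held 12 CpG, with 55.2% and 66.8% G and C, where the median window held 5 CpG and 51.6%. The TATA box TATAAA (12.9% of windows), the Maf motif TGCTGAC (3.54%) and the paired heat shock units GAANNTTC (7.19%) and TTCNNGAA (7.49%) had no match on either strand in the 3 printed windows. A match or its lack describes letters only.

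Among 15 kinases, anchors and other proteins known to act on the pump or to hold it in place, 9 were lower in Cat+ and 6 higher, with a median log2 difference of -0.10, beside 51.2% of all genes lower. *Prkca*, protein kinase C alpha, read 7.46 in Cat- against 6.48 in Cat+ in log2 signal, a fold change of 0.505, just short of the size rule, and it crossed 0.5 when the arrays were centred on their medians. *Prkaca*, the catalytic subunit of protein kinase A, read 9.16 against 8.72, a fold change of 0.738. *Sgk1*, the serum and glucocorticoid kinase that raises sodium transport, read 9.03 against 9.65, a fold change of 1.53. *Prkca* and *Prkaca* thus had lower signals beside the lower signal of *Fxyd1*, and phosphorylation was not measured.

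Of 21 measured of 23 listed transporters and exchangers that run on the sodium gradient, 13 were lower and 8 higher, with a median log2 difference of -0.05, and 1 had a fold change under 0.5, beside 51.2% of all genes lower and 0.308% under 0.5. This was *Slc24a2*, which trades sodium for calcium and potassium, with log2 signals of 7.34 and 5.53 and a fold change of 0.284. Its relative *Slc24a4* read 7.82 against 7.36, a fold change of 0.726. *Slc38a2*, a sodium-coupled carrier of neutral amino acids, read 10.53 against 10.89, a fold change of 1.28. In the proton-potassium pumps, the nearest relatives of the sodium pump, *Atp4b* read 5.21 against 5.48, a fold change of 1.21, *Atp4a* had a fold change of 0.968 and *Atp12a* one of 0.965. The NKAIN genes encode proteins that bind the beta 1 subunit, and *Nkain1*, *Nkain3* and *Nkain4* had fold changes of 1.02, 0.944 and 0.929. *Pln* and *Sln*, small single-span regulators of the calcium pump that resemble FXYD proteins in design, had fold changes of 1.17 and 1.13.

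**Figure D4:**
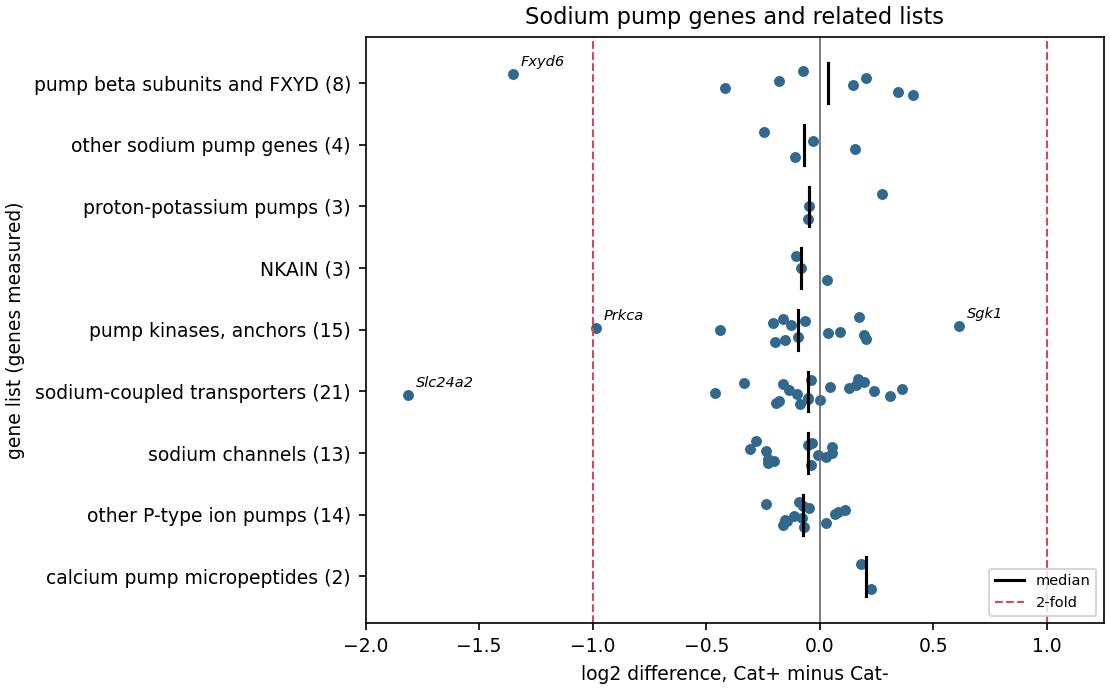
Log2 difference, Cat+ minus Cat- (x axis), of each measured gene (points) in the 8 genes and in lists of related genes (y axis, number measured in brackets), with list medians (black bars) and 2-fold lines (dashed). All list medians lie between -0.10 and 0.20, and *Fxyd6* and *Slc24a2* are the points past the lower line.

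Markers of cell types moved between the samples beside these genes. The counts below stand beside 51.2% of all genes lower in Cat+, 48.8% higher and 0.308% with a fold change under 0.5. All 8 lens fiber markers were lower in Cat+, 7 of them under 0.5, led by *Lgsn* at 0.0636 and *Mip* at 0.202, and their summed signal went from 13.67 to 11.66 on the log2 scale. Apart from *Gja3*, at 0.659, the study had already named these markers as under 0.5 on the same arrays. The count was therefore known in advance and is no separate result. Of 5 markers of the lens epithelium, 3 were higher and 2 lower, between *Itga6* at 0.838 and *Foxe3* at 1.14, and their sum was 13.04 and 13.06. The sums in this paragraph add signals, not gene levels, and weigh the brightest probe set most. For the epithelium that was *Cryab*, at 12.49 in Cat- and 12.44 in Cat+, so this sum does not measure epithelial content. *Fxyd6* and *Fxyd1* were thus lower where fiber markers were lower, and the part of fiber material in this was not tested. Of 12 markers of macrophages and leukocytes, 11 were higher, with *Cd68* at 1.90 and *Lyz2* at 1.64 and a sum of 10.73 and 11.15. Of 9 measured retina markers, 8 were higher, with *Gnat1* at 1.51 and *Sag* at 1.37 and a sum of 10.88 and 11.29. Of 7 measured markers of iris and ciliary body, whose epithelium is rich in the sodium pump, 6 were higher, with *Tyr* at 6.27 and 6.54 in log2 signal and *Trpm1*, the lower one, at a fold change of 0.605, and a sum of 10.77 and 10.89. Their part in the higher signals of *Atp1b1*, *Atp1b3* and *Fxyd5* was not tested. Of 7 measured markers of neurons and glia, 4 were lower and 3 higher, with *Stmn2* at 0.865 and *Snap25* at 0.867 and a sum of 9.62 and 9.57, beside the fold change of 0.949 of *Fxyd7*. The 3 measured markers of cornea stayed between *Krt14* at 0.975 and *Krt12* at 1.03, and of the blood and endothelium list only *Cdh5* was named alone on a probe set, at 1.09.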

How the data were processed

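Messenger RNA was measured in LECs of SCRs, with 1 array for Cat- and 1 for Cat+. The authors deposited log2 values for 29870 probe sets. The methods name division by a specific control or by the mean intensity of each array, and GeneSpring for selection. For background correction and probe summarization the method is "not given in the sources used here". The log2 scale was read from the range of the values, 4.13 to 12.50 in Cat- and 4.13 to 12.56 in Cat+. How the arrays were scaled sets the centre of all differences.

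The difference Cat+ minus Cat- was computed with no filter and no further scaling. Probe sets with 1 annotated gene numbered 18511, with 575 for several genes and 10784 unnamed. The brighter probe set stood for a gene with more than 1. Of the 18511, 18394 matched RefSeq (GRCr8) by Entrez ID. With 1 array per group no test was run, and the number of arrays limits the precision. The ratio rule was checked on simulated data.

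The members and gene lists were chosen with earlier results of these data known. Named are all members, all genes of the small pump lists, the 3 most different genes of each longer list and up to 2 of each marker list, with all 3 measured muscle markers. Neighbours were picked by their position, and *Atp2a2* after its value was seen. A planned search for genes with signals like those of a member is not reported, since it compares levels between probe sets. Alternatives covered array scaling, filters, a floor, the probe set per gene, annotation and the fold threshold. Scripts ran in Python 3.11.15 with pandas 2.3.3, NumPy 2.4.6, matplotlib 3.10.9 and statsmodels 0.14.6.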

Additional observations from a re-analysis of the deposited data

How the results depend on the processing

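The log2 difference of each member kept its sign and moved by less than the SD between probe sets under centring, quantile normalization, loess (span of 0.3), a filter or a floor at the 20th percentile, a filter at the median, other choices of probe set and the count of shared probe sets. *Fxyd6* ran from -1.37 to -1.33, *Atp1b1* from 0.38 to 0.44, *Atp1b3* from 0.29 to 0.35 and *Fxyd1* from -0.46 to -0.39. The filter at the median removed *Fxyd3* and left 7 members. Each member has 1 probe set, so the choices of probe set could not change its value. A filter keeps or drops such a gene without changing its value. The floor, at 4.75, lay below the lowest member signal of 4.92, and the count of shared probe sets left each member unchanged. Only centring, quantile normalization and loess thus bear on the stability of the differences.

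Centring put 1 kinase, *Prkca*, under 0.5, from 0 without it. At 1.5-fold, 2 genes of the kinase and anchor list were past the threshold, and over all genes 180 were lower and 37 higher, in place of 56 and 1 at 2-fold. At 3-fold, 0 members were past the threshold, and over all genes 25 were lower and 0 higher. In the other 205 of 212 comparisons, counts stayed within 1.5 times the reported count and differences within the SD between probe sets. These include the settings that could not change the value of a member. No paired analysis was possible because each group has 1 array, and for the same reason no replicate could be left out.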

Other observations

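The other P-type ion pumps, which share the catalytic cycle of the sodium pump, lay close to 0. Of 14 measured of 16 listed, 10 were lower and 4 higher in Cat+, with a median log2 difference of -0.08 and none past 2-fold. Over all genes, 51.2% were lower, 0.308% had a fold change under 0.5 and 0.00550% one over 2. *Atp7a*, a copper pump, read 6.75 in Cat- against 6.51 in Cat+ in log2 signal, a fold change of 0.847. *Atp13a2*, a lysosomal polyamine pump, was at 0.894 and its relative *Atp13a5* at 0.899. The sarcoplasmic and endoplasmic reticulum calcium pump *Atp2a2*, named after its value was seen, read 8.41 against 8.33, a fold change of 0.946.

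Of 13 measured of 15 listed sodium channel genes, through which sodium can enter, 10 were lower and 3 higher, with a median log2 difference of -0.05. Over all genes, 51.2% were lower. The 3 most different genes of the list are named here. *Scn8a*, a voltage-gated channel, read 5.27 against 4.96 in log2 signal, a fold change of 0.808. *Scnn1g*, a subunit of the epithelial sodium channel, read 5.69 against 5.40, a fold change of 0.822, and *Scn4b*, a channel beta subunit, read 5.77 against 5.53, a fold change of 0.848. Of the 13, 6 were under the array median in both samples, and the table has no detection calls.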
